A study of Mus musculus with 2 samples.

Results

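The transcripts described here lie wholly inside an intron of an annotated gene and were themselves assembled with 2 or more exons. They were taken from the deposited table of newly assembled long non-coding RNAs by the class code i and an exon number of at least 2. This gave 907 transcripts of 16840 in that table, and of 12603 inside introns. They lay in 627 host genes and formed 863 assembled loci. The remaining 11696 intronic transcripts had a single exon, and 1802 of these lay in the same hosts.

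RNA was measured in mouse spleen cells, as FPKM, the fragments per kilobase of transcript and per 1000000 fragments. One library came from the collagen-induced arthritis (CIA) mouse model, in which joints become inflamed after immunization with type II collagen. Its counterpart came from healthy mice without treatment. The tables hold long non-coding RNA only, so the spleen label was not checked against protein-coding markers. Both libraries were made from total RNA after removal of ribosomal RNA. The sample titles give day 40 and the treatment label gives the killing of the CIA mice at day 42 after the first immunization. The sources used here give neither the strain and age of the mice nor how many went into each library. With 1 library per group no difference below has a replicate check. A 2-fold size rule on log2((CIA FPKM + 0.1)/(healthy FPKM + 0.1)), called the log2 ratio from here on, takes the place of a test. Depth is unknown, so no counting interval can be given. In a mixed tissue such as spleen, fewer cells of a type and less RNA per cell cannot be told apart.

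Introns are removed from a primary transcript while it is still being made, and most intron RNA is then degraded. RNA assembled inside an intron can be unspliced precursor of the host, a stable intron fragment, or an independent gene. A transcript that truly lies on the other strand cannot be host precursor. A true splice junction fixes a strand, because spliceosomal introns begin with GT and end with AG in nearly every case. Assemblers also report a junction where a read aligns with a gap, and a gap can equally come from a stretch of sequence that is present in several copies. A strand taken from such a gap need not be the true one.

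The sequences of 13 transcripts could be read in full, because each span lay within 1 annotated exon of another isoform or gene. They are shown because they make visible what the reported splice removes. These 13 are not a sample of the other 2-exon members, whose spans were not read here. The deposited table gives the span and the spliced length of a transcript, and not the position of the junction. The spliced-out length was therefore taken as the span minus the length, and each span was compared with itself at that shift. In 10 of the 13 the span matched itself over an unbroken run of 24 to 283 bases, and in 3 the run was 4, 6 or 14 bases. The first 3 sequences below come from GENCODE M21 transcripts on GRCm38 and are written 5′ to 3′ on the strand of the assembled transcript. Capitals mark 1 placement of the spliced-out bases that starts with GT and ends with AG. Among the 13, the spans in Atf7ip (25 bases spliced out) and Mapkapk2 (58 bases spliced out) had no such placement.
Setd5, chr6:113127982-113128182, minus strand: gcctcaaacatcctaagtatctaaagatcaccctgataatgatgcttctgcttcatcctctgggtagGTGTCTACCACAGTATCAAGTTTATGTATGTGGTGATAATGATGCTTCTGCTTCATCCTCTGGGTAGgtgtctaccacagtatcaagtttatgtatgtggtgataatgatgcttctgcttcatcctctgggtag
Lrrc8d, chr5:105728780-105729016, minus strand: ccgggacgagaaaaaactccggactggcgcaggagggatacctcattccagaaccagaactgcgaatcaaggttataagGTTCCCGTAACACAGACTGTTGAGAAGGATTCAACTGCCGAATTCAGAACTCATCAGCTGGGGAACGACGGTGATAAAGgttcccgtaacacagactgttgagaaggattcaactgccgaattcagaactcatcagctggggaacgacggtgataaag
Fam204a, chr19:60224986-60225114, plus strand: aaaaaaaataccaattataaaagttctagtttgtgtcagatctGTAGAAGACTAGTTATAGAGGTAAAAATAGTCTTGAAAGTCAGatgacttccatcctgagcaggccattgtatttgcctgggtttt

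In the Setd5 transcript the 67 bases in capitals are followed at once by the same bases again. Its span matched itself over 113 bases at a shift of 67 and over 46 bases at a shift of 134, where the unit partly recurs. At shifts that are not multiples of 67 the longest match was 7 bases. Setd5 encodes a SET-domain protein linked to chromatin, and the transcript lies in its intron 12 on the opposite strand, over an isoform that retains the intron. Its level was 2.35 FPKM in CIA and 0.217 FPKM in healthy mice, and the log2 ratio was 2.95. It had the highest host ratio among hosts above 0 in both libraries and with at least 1 FPKM in either. The Lrrc8d transcript, opposite to a gene for a subunit of volume-regulated anion channels, likewise matched itself over 92 bases at a shift of 79, against at most 15 at other shifts. It was among the most abundant members, with 26.8 FPKM in CIA and 23.8 FPKM in healthy. The Fam204a transcript matched itself over 4 bases at most at its shift of 43, so its capitals occur once. Its level was 5.52 FPKM in CIA and 3.89 FPKM in healthy.

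A set of 5 further sequences lies on the strand opposite to Ahnak, which encodes a very large scaffold protein built of repeated units. The hosting intron of 36295 bases belongs to an isoform that skips the giant coding exon over which these transcripts lie. Their spliced-out lengths were 201, 402, 384, 2886 and 3300 bases, all multiples of 3, and at those shifts the spans matched themselves at 89.9% to 99.3% of positions. Among all 2-exon members 290 of 869 spliced-out lengths were multiples of 3, which is 33.4%. Other shifts also gave long matches in this exon, the longest being 273 bases. Below are 2 stretches that lie 384 bases apart, taken from the transcript with that spliced-out length. Capitals mark the 5 of 80 bases that differ between them.
Ahnak upstream copy, chr19:9014979-9015058, minus strand: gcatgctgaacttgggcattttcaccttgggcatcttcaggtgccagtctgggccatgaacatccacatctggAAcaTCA
Ahnak downstream copy, chr19:9014595-9014674, minus strand: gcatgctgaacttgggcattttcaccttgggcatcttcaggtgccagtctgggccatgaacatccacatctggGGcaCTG

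Of the 907 members, 869 had 2 exons, 31 had 3, 5 had 4 and 2 had 5. The bases spliced out of a 2-exon member ranged from 20 to 49681, with a median of 197 and quartiles of 49 and 1393. Short removals were common: 281 of the 869 (32.3%) lost at most 70 bases, and 124 (14.3%) lost at most 30. Of 284419 annotated introns in GENCODE M21, 0.344% were at most 70 bases long and 0.142% at most 30. A further group of 122 members (14.0%) lost 150 to 250 bases, a length class that held 5.46% of annotated introns. This class was chosen after its values were seen. At the long end, 244 members (28.1%) lost more than 1000 bases, against 60.3% of annotated introns.

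**Figure D1:**
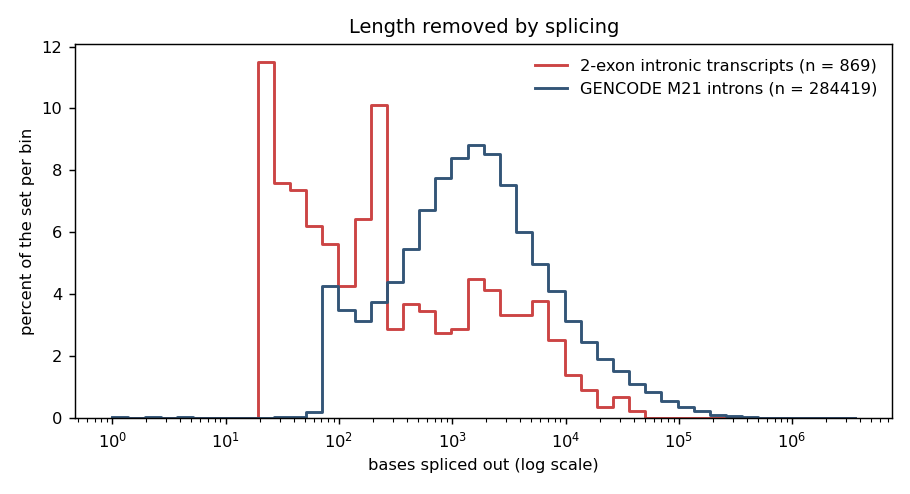
Share of 2-exon intronic transcripts (869) and of annotated GENCODE M21 introns (284419) by the number of bases spliced out, in bins of equal width on a log axis. The intronic transcripts have a peak that begins at 20 bases and another near 200 bases, while annotated introns peak above 1000 bases.

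All 907 members could be placed in an annotated intron of their host. The shortest enclosing intron of any isoform was used, and intron numbers throughout are those within that isoform. By this numbering 420 members (46.3%) lay in a first intron, against 855 of 1802 single-exon transcripts (47.4%) of the same hosts. A first intron of an isoform need not be the first of the gene. The members were assembled opposite to the host in 560 cases (61.7%) and along it in 347. Single-exon transcripts of the same hosts carried no strand in 1202 of 1802 cases, and 336 were opposite and 264 along the host. The spliced length of members had a median of 2400 bases and that of the single-exon transcripts a median of 1484 bases. Protein-coding genes hosted 885 members and long intergenic non-coding RNA genes 14. A total of 104 members (11.5%) overlapped, by their spans, a transcript that the tables place on the other strand. The strand setting of the libraries is not given, so reads of the 2 strands cannot be told apart there. Whether the 560 members assembled opposite to the host hold reads of host precursor was not tested either.

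Levels were moderate and shifted slightly towards the CIA library. Of the 907 members 900 reached 0.5 FPKM in either library, and their median level was 3.44 FPKM in CIA and 2.86 FPKM in healthy. The median log2 ratio was 0.32, with quartiles of -0.04 and 0.65, and 649 members (72.1%) lay above 0. The same median was 0.26 over all 16773 assembled transcripts that passed, so the members' median was 0.06 after centring on it. Of those 16773 transcripts 63.3% lay above 0. At least 2-fold higher levels in CIA were found for 98 members (10.9%), against 17.2% of all assembled transcripts. At least 2-fold lower levels were found for 50 members (5.56%), against 11.1%. After centring these counts were 63 and 56. Both shares lay below those of all assembled transcripts, and this difference was not tested.

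**Figure D2:**
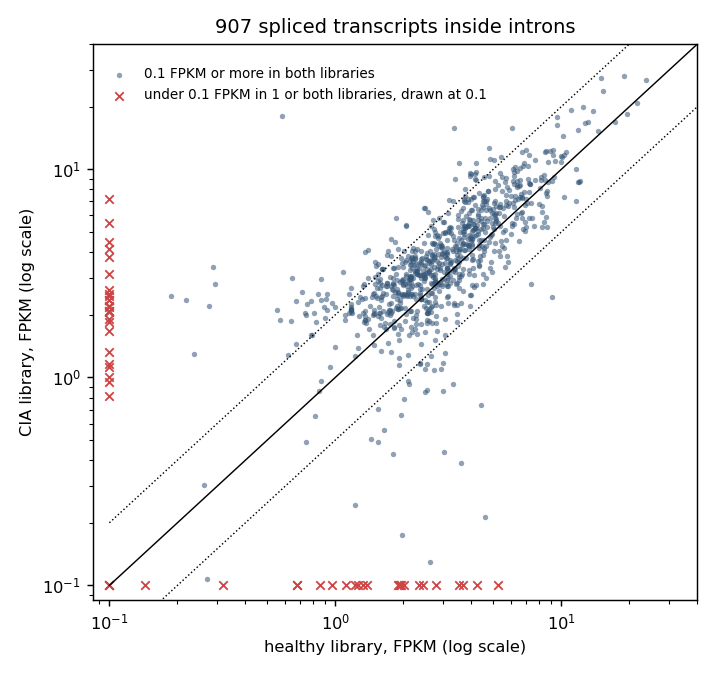
FPKM of the 907 members in the healthy library (x axis, log scale) and the CIA library (y axis, log scale); the solid line marks equal levels and the dotted lines 2-fold. Most points lie between the dotted lines, slightly above the solid one, and crosses along the margins are members under 0.1 FPKM in 1 or both libraries.

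Over all lengths, single-exon transcripts of the same hosts gave similar shares. Of 1785 that passed, 211 (11.8%) were 2-fold higher and 96 (5.38%) 2-fold lower in CIA, with a median log2 ratio of 0.30. Over the single-exon transcripts of every host, 16.0% were higher and 10.7% lower. Length went along with the counts. Members under 1000 bases were higher in 29 and lower in 25 of 195 cases. Those of 1000 bases or more were higher in 69 (9.79%) and lower in 25 (3.55%) of 705. Single-exon transcripts of at least 1000 bases in the same hosts were higher in 9.45% and lower in 0.842% of 1069 cases.

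The strand and the size of the splice made little difference to the median. Members along the host had a median log2 ratio of 0.31 (30 higher and 18 lower of 346) and those opposite to it 0.33 (68 and 32 of 554). It was 0.33 where at most 70 bases were spliced out, 0.31 for 71 to 1000 bases and 0.32 above 1000 bases. The 38 members of 3 or more exons had a median of 0.54, with 9 higher and 1 lower. Members in a first intron had a median of 0.36 and those in later introns 0.30. Sharing a locus with another assembled transcript went with the widest spread. The 122 members that did so were higher in 41 and lower in 19 cases. The 778 with no other deposited transcript in their locus were higher in 57 (7.33%) and lower in 31 (3.98%). Loci were counted and summed, here and below, over the deposited long non-coding transcripts only. A locus can therefore hold further assembled transcripts that are not seen here.

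When FPKM was summed per host, 623 hosts reached 0.5 FPKM, of which 46 were 2-fold higher and 27 lower in CIA. Sums of single-exon transcripts over 4105 hosts were higher in 11.3% and lower in 9.74%. Both sums were available for 389 hosts. The spliced log2 ratio minus the single-exon one had a median of -0.02 and quartiles of -0.27 and 0.22, and 339 hosts lay within 1 log2 unit. The 2 ratios had the same sign in 295 of the 389 hosts. Across hosts Pearson's r was 0.15 and Spearman's rho 0.46, and over the 373 hosts whose spliced sum was above 0 in both libraries they were 0.29 and 0.52. These are descriptions, since all hosts share the same 2 libraries. Of the 50 hosts whose 2 ratios were at least 1 log2 unit apart, 20 held a member listed at 0 in 1 library and 35 had a single member.

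**Figure D3:**
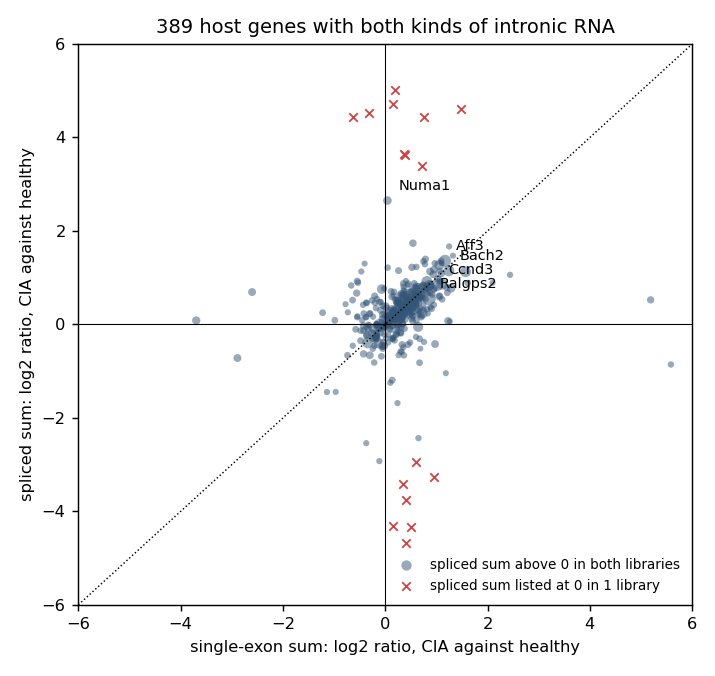
Log2 ratio of CIA against healthy for the summed spliced transcripts (y axis) and the summed single-exon transcripts (x axis) of 389 hosts; the dotted line marks equality, point area grows with the mean spliced FPKM, and crosses are spliced sums listed at 0 in 1 library. Most hosts gather along the line near the origin, and Numa1 stands above it with 2.65 against 0.04.

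Hosts that encode lymphocyte transcription factors held the members with the highest median ratio among the host groups with over 6 members. That cut was not set in advance, and the 6 members in lymphocyte receptor and surface hosts had a higher median, 0.96. All 37 members in 12 such hosts passed the filter. Of these, 16 were past 2-fold upwards and 4 downwards in CIA, and the median log2 ratio was 0.77. Over all assembled transcripts 17.2% were higher and 11.1% lower. Summed per host, 2 of the 12 hosts, Aff3 and Bach2, were 2-fold higher and 0 lower, with a host median of 0.51. Of 58 single-exon transcripts in the 12 hosts, 25 were higher and 1 lower, with a median of 0.84. Aff3, a nuclear protein gene active in lymphoid cells, held 7 members. Summed, they gave 49.3 FPKM in CIA and 19.1 FPKM in healthy, a log2 ratio of 1.36. Its 14 single-exon transcripts summed to 128.2 and 57.0 FPKM, a ratio of 1.17. Of the 7 members 6 were above 2-fold, among them a transcript of 12876 bases in intron 1 (chr1:38551778-38564683, plus strand) at 10.7 against 4.19 FPKM. The exception was 1 of a pair of isoforms of 1 locus in intron 1 (chr1:38581240-38590293, plus strand). It had 3.87 FPKM in CIA and 4.04 in healthy, while its partner, 2 bases longer, had 7.20 and 0.00460 FPKM. Together that locus gave 11.1 against 4.04 FPKM. Another transcript, assembled on the minus strand across the last 3769 bases of the same span, had 10.7 against 3.51 FPKM.

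Bach2, a repressor that keeps B and T cells from terminal differentiation, held 3 members along its own strand. They had 15.8, 9.67 and 12.2 FPKM in CIA against 6.07, 4.18 and 6.68 FPKM in healthy. The summed log2 ratio was 1.15, beside 1.24 for 8 single-exon transcripts. Runx1, a factor of blood cell formation, held 5 members with 32.0 FPKM in CIA and 18.5 FPKM in healthy, a ratio of 0.79. Its 2 members of 5 exons, the most exons of any member, were isoforms of 1 locus in intron 1 (chr16:92758097-92761693). The first had 5.28 and 3.50 FPKM in CIA and healthy, and the second had 2.62 FPKM in CIA and was listed at 0 in healthy. Foxp1, needed for B cell development, was chosen after its values were seen because its members went both ways. Its 5 members had log2 ratios of 1.39, 1.21, 0.77, 0.71 and -1.29, the last from 1.17 against 2.99 FPKM.

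Hosts of lymphocyte receptor and surface genes held 6 members, all above 0, and 3 passed 2-fold upwards with 0 downwards, around a median of 0.96. Single-exon transcripts in these hosts were higher in 16 and lower in 1 of 22 cases. The transcript in Cxcr5, a chemokine receptor that guides B cells into follicles, had 7.97 against 5.88 FPKM. That in Il6ra, the receptor of interleukin-6, had 5.57 against 2.99 FPKM. The one in Themis, a protein of T cell receptor signalling, had 2.24 against 0.746 FPKM, and 13 single-exon transcripts there summed to 30.5 against 12.1 FPKM. Grap2, which encodes an adaptor of T cell receptor signalling, was named after its values were seen. All 4 of its members were 2-fold higher in CIA, on both strands, with log2 ratios of 1.20, 1.21, 1.24 and 1.36.

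Lymphocyte signalling hosts gave the largest group but few calls. Of 44 members in 22 hosts 42 passed, 2 were higher and 1 lower, and the median was 0.46. Single-exon transcripts there were higher in 12 and lower in 1 of 59 cases. Ralgps2, a Ral exchange factor gene, held 4 members in intron 1 with 52.4 FPKM in CIA and 35.8 FPKM in healthy. The most abundant of these, along the host (chr1:156930514-156934761), had 19.8 against 12.5 FPKM. Bank1, a B cell scaffold gene, held 4 members with 44.5 against 26.9 FPKM, a ratio of 0.72. Its member of 3 exons, opposite to the host in intron 6, had 23.8 and 15.3 FPKM. No member of Ralgps2 passed 2-fold, and the 1 that did in Bank1, with 0.816 FPKM in CIA, was listed at 0 in healthy. The other 2-fold higher member of the group lay in Arhgap25, with 3.77 FPKM in CIA and listed at 0 in healthy, beside an isoform at 3.22 against 4.96 FPKM. The lower one lay in Cblb, which encodes a ubiquitin ligase that restrains lymphocyte activation.

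In the other host groups few members passed 2-fold. Hosts of chromatin regulators held 28 members, with 2 higher, 1 lower and a median of 0.28. Kmt2e held 3 members with ratios between 0.15 and 0.20, and Baz2b 2 members with 14.0 against 10.7 FPKM in sum. RNA-processing hosts held 10 members, with 1 higher, 1 lower and a median of 0.19. The Drosha member, in the gene of the nuclease that starts microRNA maturation, had 4 exons, lay opposite to the host, and had 4.56 against 5.70 FPKM. Tnrc6c, a gene of microRNA silencing, held 2 members with 8.06 against 5.60 FPKM in sum, and Mbnl2, a splicing regulator gene, 2 with 8.09 against 6.09 FPKM. Only 2 members lay in myeloid hosts. That in Mertk, a receptor for engulfing dying cells, had 2.09 against 1.79 FPKM, and that in Fcgr3, an Fc receptor gene, was listed at 0 in CIA with 1.94 FPKM in healthy.

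Members in hosts of cell division genes and of red cell and platelet genes had medians below 0. Of 8 members in 4 cell division hosts none passed 2-fold, 2 were above 0, and the median log2 ratio was -0.45. Both of the positive ones lay in Ccnd3, the cyclin D3 gene, at 27.5 against 14.9 FPKM and 19.3 against 11.1 FPKM. The 4 members in Diaph3, a formin gene, had 2.68, 1.28, 1.16 and 1.67 FPKM in CIA against 3.53, 2.09, 2.37 and 2.80 FPKM in healthy, all lower and none by 2-fold. Of 5 members in 3 red cell and platelet hosts none passed 2-fold, 1 was above 0, and the median was -0.30. The positive one lay in a host other than Epb41 and Rhd. Epb41, which encodes protein 4.1 of the red cell membrane skeleton, held 3 members with 19.96 against 26.4 FPKM, a log2 ratio of -0.40. Rhd, a blood group antigen gene, held 1 with 5.61 against 6.93 FPKM. The single-exon transcripts of these hosts had medians of 0.02 over 5 transcripts and -0.13 over 4.

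**Figure D4:**
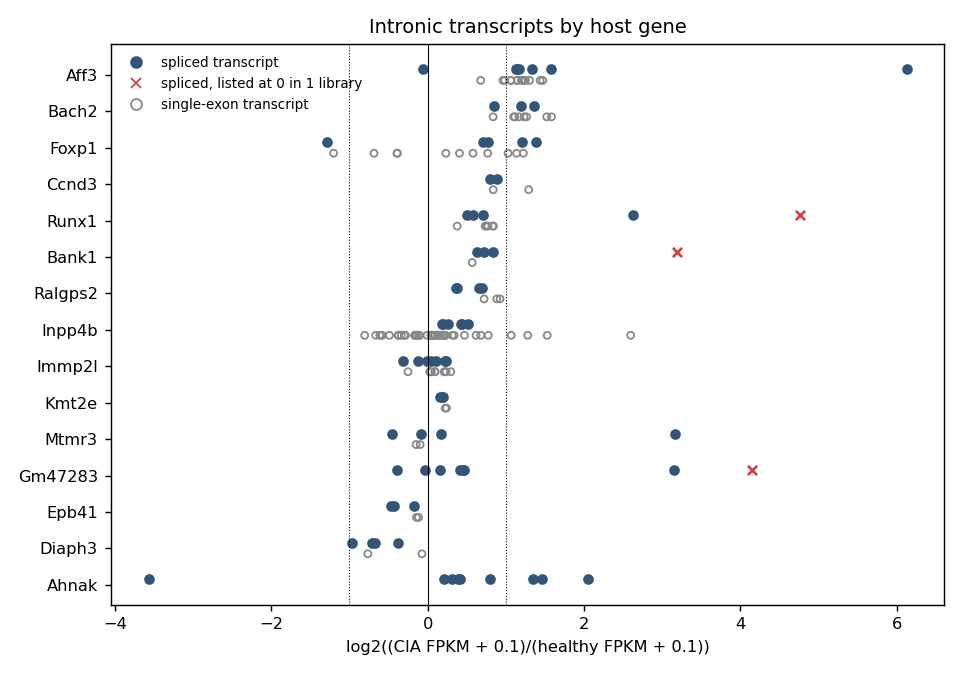
Log2 ratio of every spliced member past the filter (filled, crosses where listed at 0 in 1 library) and every single-exon transcript (open) in 15 hosts, with dotted lines at 2-fold. The members of Aff3 and Bach2 lie mostly to the right of 0.8, those of Immp2l and Kmt2e close to 0, and those of Diaph3 and Epb41 to the left of 0.

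Some hosts held many members and large amounts of intronic RNA. Gm47283, annotated in GENCODE M21 as a protein-coding gene on chromosome Y, had the highest sum, 52.5 FPKM in CIA and 45.1 FPKM in healthy over 8 members. Of these, 6 came from a single locus of 14 assembled transcripts. Among these 6 members 1 was listed at 0 in healthy, and the log2 ratios of the others ran from -0.39 to 3.15. The locus as a whole had 90.8 against 84.2 FPKM. Whether reads of this locus also match copies elsewhere was not tested. Immp2l, a mitochondrial peptidase gene, held 7 members with 40.9 against 38.6 FPKM and ratios from -0.32 to 0.23. Inpp4b, a phosphoinositide phosphatase gene, held 6 with 33.2 against 27.1 FPKM and ratios from 0.18 to 0.51, beside 49 single-exon transcripts that summed to 197.6 against 180.2 FPKM. Ahnak held 9 members with 32.4 against 23.0 FPKM. Its ratios ran from -3.57 (0.129 against 2.62 FPKM) to 2.06 (2.99 against 0.644 FPKM). Of 57 hosts with at least 3 members, 29 had every passing member above 0 and 3 had every one below. In 11 hosts 1 member was 2-fold higher and another 2-fold lower, among them Ahnak, Ebf1, Foxp1 and Tcf4.

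The remaining hosts of high or low ratio mostly held 1 or 2 members. Numa1, whose protein organizes the poles of the mitotic spindle, gave 22.3 against 3.46 FPKM, a ratio of 2.65. Nearly all of it came from a transcript of 232 bases with 20 bases spliced out, opposite to the host in intron 2 (chr7:101977803-101978054), with 18.0 FPKM in CIA and 0.580 FPKM in healthy. A second Numa1 member had 4.29 against 2.88 FPKM, and 2 single-exon transcripts summed to 9.18 against 8.92 FPKM. The other hosts with the highest ratios were Cmip, Synpo2, Pprc1, Serinc5, Themis, Maml2, 4930595D18Rik and 4933431K23Rik, with ratios from 1.36 to 1.75. The lowest were found in March3 (-2.93), Sesn2 (-2.54), Slc9a7 (-2.43), Phgdh (-1.85), Depdc1b (-1.68) and Tmem184b (-1.49). Syt14, Cep192, Usp48 and Gucy1a2 followed, with ratios between -1.45 and -1.44. Their healthy levels lay between 1.55 FPKM in Tmem184b and 4.40 FPKM in Slc9a7. In Syt14, 15 single-exon transcripts were also lower, at 13.8 against 30.5 FPKM. Single-exon sums were lower too in Cep192 (3.70 against 7.35 FPKM) and Sesn2 (3.31 against 4.32 FPKM). They were higher in CIA in Slc9a7 (39.7 against 25.3 FPKM) and Depdc1b (6.89 against 5.83 FPKM). Phgdh, Tmem184b, Usp48 and Gucy1a2 held no single-exon transcript. In March3, a membrane ubiquitin ligase gene, 6 single-exon transcripts had 59.8 against 64.8 FPKM.

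Members listed at 0 in 1 library often sat beside another isoform of the same locus. There were 46 such members, 21 at 0 in CIA and 25 at 0 in healthy, or 5.07% of members. Of single-exon transcripts in the same hosts 1.39% were listed at 0 in 1 or both libraries. They made up 23 of the 98 higher and 20 of the 50 lower members. Of the 46, 33 shared their locus with another assembled transcript. Summed over the locus, 26 of these 33 were within 2-fold, 7 were higher in CIA and none lower. The highest of these locus ratios were in Cmip (14.7 against 3.64 FPKM) and Chst3 (21.5 against 6.84 FPKM), where the healthy library lacked the isoform.

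Ebf1, the B cell lineage factor, was chosen after its values were seen. Its isoform with 54 bases spliced out was listed at 0 in CIA and had 4.24 FPKM in healthy. The unspliced transcript of that locus had 25.5 against 12.6 FPKM. The other Ebf1 member, in a separate locus, went the opposite way, with 4.46 FPKM in CIA and listed at 0 in healthy. Summed, the 2 members gave 4.46 against 4.24 FPKM. In Cblb the spliced isoform was listed at 0 in CIA with 1.92 FPKM in healthy, and the unspliced one had 5.48 against 2.57 FPKM. For 12 members the locus also held an unspliced transcript with exactly the same start and end, so that the pair differed by the spliced-out bases alone. The spliced form was listed at 0 in healthy in 6 of these pairs, listed at 0 in CIA in 2, and above 0 in both libraries in 4. In Cdc42 and Rhoa, genes of small GTPases, 189 and 99 bases made that difference. The spliced forms had 3.14 and 2.21 FPKM in CIA and were listed at 0 in healthy, beside unspliced forms at 9.21 against 8.05 FPKM and 5.00 against 6.30 FPKM. In Iqsec1 the difference was 27 bases, with a spliced form at 2.07 FPKM in CIA and listed at 0 in healthy, and an unspliced form at 3.43 against 3.58 FPKM. The 2 listed at 0 in CIA lay in Ppp2r2a and Taok3, with 1.25 and 1.33 FPKM in healthy, beside unspliced forms at 5.23 against 3.76 FPKM and 6.50 against 3.84 FPKM. Both forms were above 0 in both libraries in Sdf4, Atp13a3, Arhgap15 and Kdm7a. Their spliced levels were 1.72 against 1.68, 3.35 against 3.13, 2.09 against 2.14 and 1.12 against 0.944 FPKM. Their unspliced levels were 2.58 against 3.53, 3.83 against 3.06, 6.37 against 2.47 and 4.75 against 2.62 FPKM. The Nfia isoform, listed at 0 in healthy, lay in a locus with 7.99 against 5.65 FPKM.

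**Figure D5:**
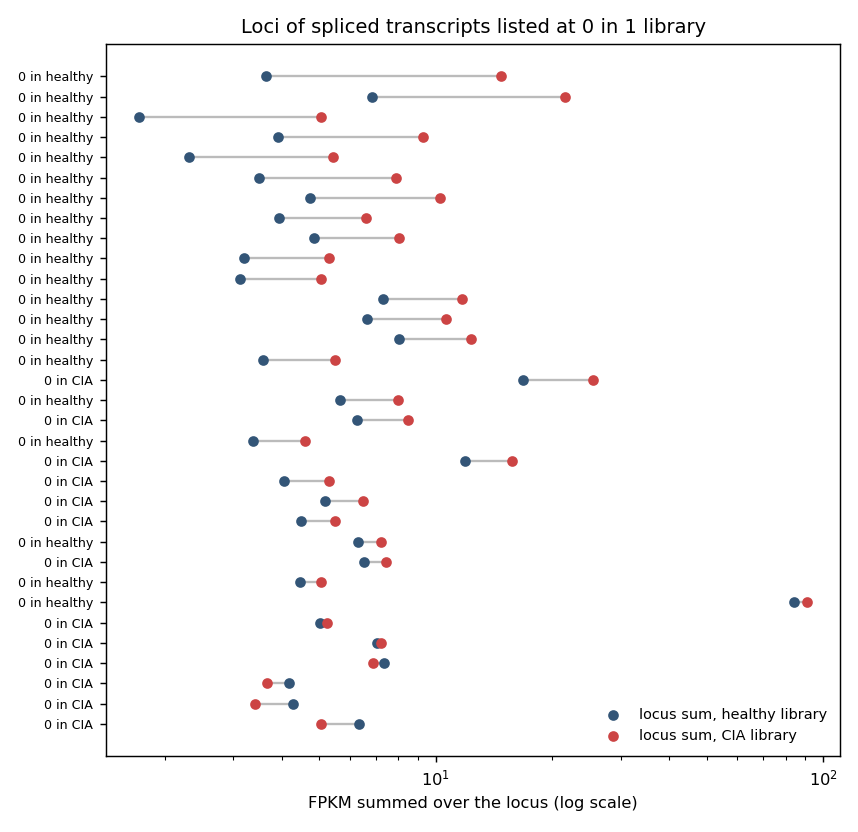
FPKM summed over the assembled locus (log scale) in the healthy and CIA libraries for the 33 members that are listed at 0 in 1 library, named at the left of each line, and share their locus, ordered by the locus ratio. The 2 sums are within 2-fold in 26 of the 33 loci, and in the other 7 the CIA sum is higher.

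Another 13 members listed at 0 in 1 library had no other deposited long non-coding transcript in their locus. The most abundant of those at 0 in CIA was a transcript of 451 bases opposite to Lax1, an adaptor gene of lymphocyte signalling (chr1:133689158-133689718), with 5.23 FPKM in healthy. The Tnrc6b member, with 2.44 FPKM in healthy, also had no other deposited transcript in its locus. In that gene 3 single-exon transcripts summed to 20.04 against 15.2 FPKM.

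The authors' deposited table marked 62 members as significantly higher and 7 as significantly lower in CIA, or 69 of 907. Over all assembled transcripts the authors' deposited table marked 5.40% higher and 0.909% lower. A p-value below 0.05 stood in the authors' deposited table for 9 higher and 5 lower members, against 1.32% and 0.534% of all assembled transcripts. Members with a q-value below 0.05 in the authors' deposited table numbered 3. The first was a transcript of Mtmr3, a lipid phosphatase gene (p = 2.25e-06, q = 0.00024 in the authors' deposited table), assembled on the plus strand (chr11:4567941-4577400) with 3.38 against 0.288 FPKM. A transcript on the minus strand covered that whole span with 8.78 against 12.1 FPKM, and all 4 Mtmr3 members summed to 37.8 against 38.3 FPKM. The other 2 lay in March3 (p = 4.75e-06) and Slc9a7 (p = 0.000101) in the authors' deposited table, both lower in CIA. With the other deposited transcripts of the locus added, the March3 locus had 4.70 against 6.18 FPKM and the Slc9a7 locus 8.23 against 9.07 FPKM. The authors' mark was set for more members than had a p-value below 0.05, so it did not rest on that cut. With 1 library per group, the deposited p-values and q-values contain no variation between replicate libraries.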

How the data were processed

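RNA-seq of mouse spleen was analysed from 1 CIA and 1 healthy library. Transcripts were assembled with StringTie, per the submitters' processing notes. The sources used here name no aligner, build, strand setting or test. The authors deposited FPKM per transcript, per the file headers, with 0.0001 in place of 0, which was read as 0. The deposited ratio (fold) column matched the quotient of both FPKM columns in all 16840 assembled transcripts, within a relative tolerance of 0.0001. Columns of log2 ratio, p-value and q-value were deposited by the authors and are quoted where named. All 15172 annotated transcripts had GENCODE M21 coordinates, so GRCm38 is given as the build.

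Members were the assembled transcripts of class code i with at least 2 exons. A level of 0.5 FPKM or more was required in 1 of the libraries, and 2-fold was read on log2 values after adding 0.1 FPKM, which understates the ratios of low transcripts. Host strand, introns and exons came from GENCODE M21. FPKM keeps no counts, so depth and counting error are unknown. Members, gene lists and rules were chosen with earlier results of these data known. Named hosts were the 10 of highest and 10 of lowest ratio (1 FPKM or more in a library, above 0 in both), the 5 most abundant, the 5 most abundant at 0 in each library, the 2 most abundant per list, those of the 3 members with most exons and the 5 with most members. Of these hosts 1 is not reported here. Other hosts are said to be chosen after their values were seen or stand in a count of 5 or fewer. Python 3.11.15, numpy 2.4.6, pandas 2.3.3 and matplotlib 3.10.9 were used.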

Additional observations from a re-analysis of the deposited data

How the results depend on the processing

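Of the 900 members past the filter 98 were 2-fold higher. This count became 55 with a pseudocount of 1 FPKM, 63 after centring on all assembled transcripts and 34 under a 4-fold rule. Among the 38 members of 3 or more exons it was 9 (23.7%), against 10.9% of all members past the filter. The 50 lower members became 27 with a pseudocount of 1 FPKM, 30 among members above 0 in both libraries and 27 under a 4-fold rule. Among the 38 members of 3 or more exons 1 was lower. The 50 lower members became 31 with locus sums, a setting chosen after seeing the data. The median log2 ratio of 0.32 became 0.065 after centring and 0.54 for 3 or more exons, and that of single-exon transcripts, 0.30, became 0.041 after centring. The 46 higher hosts became 25 with a pseudocount of 1 FPKM, 28 after centring and 11 under a 4-fold rule, and the 27 lower hosts became 10 with a pseudocount of 1 FPKM and 12 under a 4-fold rule. Of 52 named hosts, locus sums reversed 1, Cblb, from -4.34 to 0.28, and brought 7 within 2-fold. The 52 include hosts that were within 2-fold from the start, such as Immp2l and Kmt2e, which could not be brought there. A pseudocount of 1 FPKM brought 10 within 2-fold and a pseudocount of 0.01 FPKM none. Centring brought 1 there, Bach2, from 1.15 to 0.89. Beyond the construction of each setting the cause was not tested. No paired analysis was possible because there is a single library per group. Depth is unknown, so the limit it sets on low members cannot be given.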

Other observations

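One member began close to a start annotated elsewhere. Of all members, the transcript in Elmsan1 was the one whose 5′ end fell, on the same strand, within a promoter window of a RefSeq gene. It began 29 bases upstream of the RefSeq start of Gm51953 on chromosome 12, with 5.75 FPKM in CIA and 5.14 FPKM in healthy. The 2 members in Mapkapk2, a kinase gene, lay over a single annotated exon of Gm37084. One had 2.91 against 1.97 FPKM, and the other had 1.85 FPKM in CIA and was listed at 0 in healthy. The spans of these 2 matched themselves over 66 and 112 bases at shifts of 78 and 58 bases. At other shifts the longest matches were 37 and 141 bases, the latter at a shift of 29.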
